A study of Mus musculus with 1376 samples.

Results

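Airway smooth muscle cells (airway SMC) of the mouse lung were described from single-cell RNA sequencing. They were selected on measured values, namely a level of at least 20 CPM (a gene's counts divided by all counts of the cell and multiplied by 1000000) in 3 or more of Npy4r, Sbspon, Chrm2, Corin, Sh3rf2, Nipal4 and Lgi3, together with at least 500 CPM of the smooth muscle myosin gene Myh11. This rule took 52 of 1376 cells (3.78%). All cells came from dissociated lungs of ACTA2GFP:CSPG4dsRED mice, a strain named for fluorescent reporters of smooth muscle actin (Acta2) and of the proteoglycan NG2 (Cspg4), and the labels name no treatment. The 3 mice were the replicates: male mouse 1 gave 30 airway SMC, male mouse 2 gave 10 and female mouse 1 gave 12. Ages of 8 to 30 weeks stand on the samples, but the series text has 8 to 21 weeks and names only males, and the dissociation protocol speaks of heart although the tissue is labelled lung. Airway SMC were set against 713 other cells with at least 500 CPM of Myh11 (called other Myh11-high cells), against the 10.8% of all cells that lie outside the rule and have at least 20 CPM in 3 or more of Lgr5, Pappa2, Aspn, Fgf18, Cdh4 and P2ry14 (alveolar myofibroblast-gated cells, which the Myh11-high class leaves out), and against all 1324 cells outside the rule.

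Airway smooth muscle wraps the conducting airways in bundles and sets their calibre. Acetylcholine from parasympathetic nerves acts on muscarinic receptors of the muscle and contracts it, Chrm2 being the Gi-coupled and Chrm3 the Gq-coupled subtype, while cyclic AMP and cyclic GMP relax it. During lung development the muscle arises from mesenchyme that receives Hedgehog signals from the airway epithelium. Vascular smooth muscle shares the contractile apparatus, and Notch3 is its characteristic Notch receptor.

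Airway SMC had 52470 to 1047073 counts per cell, with a median of 273562.5, against a median of 228743.5 in all other cells, and 3017 to 8301 genes with a count. Mitochondrial genes took 0.416% to 5.31% of an airway cell's counts. Summed over cells, the airway counts were 10332267, 1925177 and 3757942 (values of the 3 mice always stand in the order of male mouse 1, then male mouse 2, then female mouse 1), so the sum of male mouse 2, from 10 cells, was the thinnest. Plates 045s and 046s of male mouse 1 gave 17 and 13 airway cells, 4.87% and 4.28% of their cells. Each other mouse filled a single plate, so mouse and plate cannot be told apart, nor sex in the single female. The share of cells meeting the rule was 4.59% (exact 95% Clopper-Pearson interval 3.12% to 6.49%), 2.84% (1.37% to 5.16%) and 3.23% (1.68% to 5.58%), and these overlapping intervals cover counting error only. The share follows what was sorted, for which no gate is stated.

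The genes of the rule were unevenly used among the 52 cells, and their values describe the choice rather than test it. Sbspon, a secreted protein with somatomedin B and thrombospondin domains (chr1:15853862-15892722, minus strand, GRCm38), was at 20 CPM or more in 47 cells. Chrm2, the M2 muscarinic receptor (chr6:36388084-36528414, plus strand), followed with 39. Lgi3, a secreted leucine-rich repeat protein, had 25, and Corin, the serine protease that activates natriuretic peptide precursors, had 23. Sh3rf2, a ring finger and SH3 protein, had 22, Nipal4, a magnesium transporter-like protein, had 17 and Npy4r, a receptor of the neuropeptide Y family, had 12. No cell held more than 5 of the 7, as 26 cells had 3, 23 had 4 and 3 had 5. The most common set, Sbspon with Chrm2 and Corin alone, was found in 6 cells. Corin and Sh3rf2 met in 4 cells of 23 and 22, a pairing that the rule of 3 genes itself bears on.

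Across cells, Sbspon ran from 0 to 2290.2 CPM, with a median of 472.6, and Chrm2 ran from 0 to 4424 CPM, with a median of 622.2. Myh11 ran from 868.3 to 8733 CPM, with a median of 3232, all above the limit of 500. Summed per mouse and scaled by the trimmed mean of M-values (TMM), Sbspon had 552.6, 832.9 and 497.98 CPM in airway SMC and 9.99, 3.49 and 36 CPM in other Myh11-high cells. Chrm2 had 778.5, 1523 and 259.8 CPM against 54.6, 9.3 and 11 CPM, highest in male mouse 2 and lowest in female mouse 1. Npy4r had 117.9, 313.2 and 71.2 CPM against 0.0481, 0.133 and 0.713 CPM. Just outside the rule were 52 cells with 2 markers and enough Myh11, of which 14 were alveolar myofibroblast-gated, and 2 cells with 3 or more markers and Myh11 at 361.8 and 401.5 CPM. The lowest member had 868 CPM of Myh11. In the shallowest cells 20 CPM is close to 1 read, and with every cell thinned to 50000 counts the rule took 4.22% of cells.

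**Figure D1:**
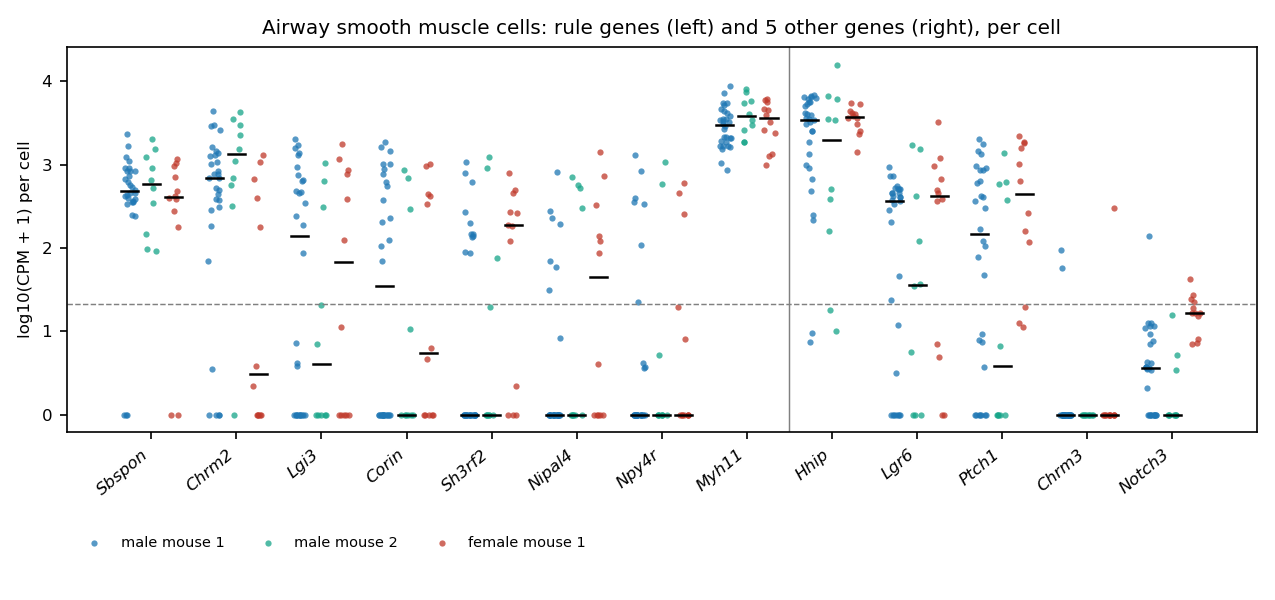
Level per cell, as log10(CPM + 1), of the 8 genes of the rule and of 5 other genes in the 52 airway SMC, 1 point a cell, coloured by mouse. Black bars are medians per mouse and the dashed line is 20 CPM; Myh11 and Hhip are high in nearly every cell, the 7 markers are each absent from part of the cells, and Chrm3 has a count in 3 cells.

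The start regions of the receptor gene Chrm2 and the protease gene Corin are shown because these 2 members of the rule had promoter sequence in RefSeq (GRCm38.p6) and were found in 39 and 23 cells. The 250 bases before each start are at chr6:36387834-36388083 on the plus strand and chr5:72504541-72504790 on the minus strand, written 5′ to 3′ in lower case because no searched motif was present to be marked in capitals.
Chrm2: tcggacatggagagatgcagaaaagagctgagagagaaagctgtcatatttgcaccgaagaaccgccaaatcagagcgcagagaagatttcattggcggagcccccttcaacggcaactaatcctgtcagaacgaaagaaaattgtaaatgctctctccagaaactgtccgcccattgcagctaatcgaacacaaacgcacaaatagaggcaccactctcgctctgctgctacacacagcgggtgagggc
Corin: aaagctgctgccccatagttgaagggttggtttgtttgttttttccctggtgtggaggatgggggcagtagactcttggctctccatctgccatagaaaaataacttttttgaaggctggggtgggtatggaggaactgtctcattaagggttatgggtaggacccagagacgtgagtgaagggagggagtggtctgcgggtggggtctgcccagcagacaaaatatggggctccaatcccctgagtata
Of the 8 rule genes, 4 (Chrm2, Corin, Nipal4 and Npy4r) matched the promoter table. Their 300 bases, from 250 before to 50 after the start, were searched on both strands for the CArG box of serum response factor, the GLI letters GACCACCCA, the forkhead letters TGTTTAC and the RBPJ letters TGGGAA. None of the 4 promoters held any of these, while 1.63%, 0.253%, 3.65% and 25.6% of all 32851 promoters did. This says only that these letters are not in these windows.

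Markers of other cells were then set beside the label. The summed level of 8 vascular smooth muscle markers was 452.6, 177.1 and 248.5 CPM in airway SMC and 3305, 3998 and 6259 CPM in other Myh11-high cells, so the groups did not overlap. In airway SMC 27 of 52 cells had none of the 8 at 20 CPM and 6 had 3 or more (11.5%), against 85.97% of the 713 other Myh11-high cells. Low vascular markers were not particular to airway SMC. Of the alveolar myofibroblast-gated cells 22.1% had 3 or more, with sums of 696.4, 705.6 and 2164 CPM. Chrm3, the muscarinic receptor usually linked to airway contraction, had a count in 3 airway cells, with 2.67, 0 and 46.3 CPM, so the label rests on the genes of the rule rather than on Chrm3.

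The 6 alveolar myofibroblast genes summed to 2504, 2857 and 1988 CPM in airway SMC, 505.95, 583.9 and 508.6 in other Myh11-high cells and 3602, 6413 and 3240.2 in the gated cells. Of the 52 airway SMC, 30 (57.7%) also met that gate, 18, 5 and 7 in the 3 mice. They did so mostly through Aspn, P2ry14 and Cdh4, at 20 CPM or more in 47, 44 and 33 airway cells, while Lgr5, Pappa2 and Fgf18 reached it in 2, 1 and 3. Because gated cells outside the rule were kept out of the Myh11-high comparator, genes that go with the gate can differ there through that choice. The comparison was therefore repeated with the Myh11-high gated cells in the comparator, an alternative added after seeing the data.

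Markers of other stromal cells were present in airway SMC. The 7 pericyte markers summed to 1178, 826.9 and 1321 CPM, against 783.6, 1169 and 1367 CPM in other Myh11-high cells, and 14 of the 52 airway cells (26.9%) had 3 or more of them, against 43.3% of the other class. Most of the airway sum in each mouse was Kcnj8, 1 of the 7. The rest of the list was lower in airway SMC than in the other class in each mouse. The alveolar fibroblast list summed to 624.1, 760.97 and 535.1 against 1176, 2112 and 1109.6 CPM and the adventitial list to 158.5, 203.6 and 196.9 against 185.4, 174.96 and 575.7 CPM. Their part in the results below was not tested, except by leaving out cells with fibroblast markers. Lists of blood, vessel-lining and epithelial cells had lower sums in airway SMC than these stromal lists, though not always lower than in other Myh11-high cells. The 6 lymphocyte markers summed to 4.74, 0 and 0.532 CPM and Cd3e, Cd3g and Nkg7 were at 0 in airway SMC. The macrophage list summed to 19.1, 5.19 and 24.2, the endothelial list to 93.9, 36.9 and 12.2 and the epithelial list to 58.2, 11.4 and 16 CPM, with Foxj1 and Krt8 at 0. The Schwann cell gene Sox10, the mesothelial genes Msln, Upk3b and Lrrn4 and the cartilage genes Acan and Col2a1 had no count. Over the endothelial, macrophage, lymphocyte, epithelial, Schwann and 2 fibroblast lists, 9 of the 52 cells had 3 or more markers of a list, 6 of alveolar fibroblasts, 3 of adventitial fibroblasts and 1 of endothelium, with 1 cell in more than 1 list. Pericyte markers and the cardiomyocyte list, with 3 or more in 2 cells, do not enter that count. No doublet caller was run. No airway cell had the same counts as another.

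**Figure D2:**
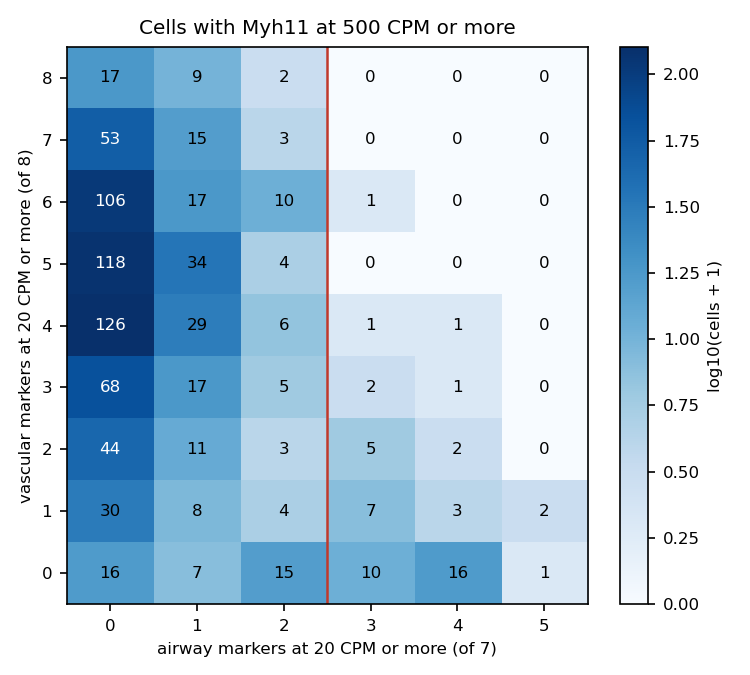
Number of cells with Myh11 at 500 CPM or more, by airway markers (x axis, of 7) and vascular markers (y axis, of 8) at 20 CPM or more; shading is log10(cells + 1) and the red line marks the rule. Cells right of the line sit mostly in the lowest rows, with 27 of 52 at 0 vascular markers.

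Against other Myh11-high cells, airway SMC had higher Hedgehog pathway genes Ptch1 and Boc, the signalling regulators Rgs2, Adcy7 and Pde4d, the endothelin receptor Ednrb, the potassium channel Kcnj8 and the gap junction gene Gja1, and lower Notch3, Hey2, Epas1, Ebf1, Eln, Gucy1a1 and Pdgfrb. With edgeR's quasi-likelihood test on counts summed per class and mouse, mouse as a block and Benjamini-Hochberg adjustment over all 15146 genes, 41 genes were higher in airway SMC (0.271% of those tested) and 42 were lower (0.277%) at an adjusted p under 0.05. Without Sbspon, Npy4r, Aspn and P2ry14, which chose the cells, 37 were higher and 42 lower. The median log2 fold change of all genes was -0.41, and -0.28 with DESeq2's size factors, so zero does not mark the typical gene. List counts and medians below stand beside these shares and the median of -0.41, and a few called members are no result about a list. The 7 markers were chosen with these data in view, so genes that vary with them are not independent of the choice. Called genes have a small p, which favours airway and comparator values that do not overlap, so such gaps below add no support. The share of all tested genes with such a gap is not given. Leaving out any 1 mouse left 0 calls, with 1464 to 1596 genes at an unadjusted p under 0.05 and 2 mice per class. The 41 called genes that the naming rule took kept their direction, which their choice on all mice made likely. With the Myh11-high gated cells put into the comparator 33 genes were called, 27 of them among the 83, and 22 of those 41 were among these. Without the block, 11 of the 41 were not called, among them Notch3, Boc, Ogn and Eln. Of the 41, 26 lost the call with at least 4 markers required, 21 with at least 2 and 38 without the airway cells that meet the gate.

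Among genes of the Hedgehog pathway, of 18 members, 15 were tested, 2 were called higher and 0 lower, with a median log2 fold change of 1.41 beside -0.41 for all genes. Against the myofibroblast-gated cells the median of this list was -0.19 beside -0.28 for all genes, with 0 called. Ptch1, which binds Hedgehog ligands and is induced by them (chr13:63508328-63573598, minus strand), had 492.9, 359.5 and 1013 CPM in airway SMC and 25.9, 58 and 95.5 CPM in other Myh11-high cells. The 3 airway values all lay above the 3 others, and the log2 fold change was 3.35 ± 0.43 (SE) with an adjusted p of 0.0252. In thinned cells Ptch1 had a count in 69.2% of airway SMC, 19.9% of other Myh11-high and 33.6% of myofibroblast-gated cells. Boc, a co-receptor, had 203.4, 309.8 and 612.9 CPM against 28.6, 47.9 and 203.05 CPM, each airway value above that of the same mouse, and 2.34 ± 0.35 (SE) on the log2 scale (adjusted p = 0.0354). With gated cells in the comparator neither was called, at adjusted p = 0.134 for Ptch1 and 0.061 for Boc.

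Hhip, a membrane antagonist that binds Hedgehog ligands and is itself a target (chr8:79965851-80058006, minus strand), had a count in all 52 cells, ranging from 6.51 to 15815 CPM, with a median of 3478. Summed levels were 3329.7, 3470.1 and 3576 CPM, a spread of 3459 ± 123.5 (SD, n = 3), against 16, 71.6 and 361.7 CPM in other Myh11-high cells and 3489, 6258 and 4237 CPM in gated cells. The Myh11-high values differed widely between mice, highest in female mouse 1, and the test gave 5.22 ± 0.90 (SE) and an adjusted p of 0.0554, short of a call. The value depended on the comparator. With gated cells in the comparator it was 3.27 with an adjusted p of 0.0204. With only Myh11-high cells of 3 or more vascular markers it was 7.84 (adjusted p = 0.011). Without comparator cells holding airway markers it was 6.64 (adjusted p = 0.0165). It was not called with at least 4 markers (0.119), without airway cells meeting the gate (4.60, adjusted p = 0.118) or on leaving out any 1 mouse. The transducer Gli1 had 8.48, 20.4 and 138.8 CPM and counts in 14 airway cells, and the transcription factor Foxf1 had 301.5, 344.1 and 188.3 against 41.8, 42.6 and 60.8 CPM (adjusted p = 0.161); neither was called.

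Most contractile genes did not pass the test between the classes. Of 32 members all were tested, 1 was called higher and 0 lower, with a median log2 fold change of 0.11. Acta2 had 4750.4, 8503 and 4975 CPM in airway SMC and 5110.2, 9518 and 4644 CPM in other Myh11-high cells, and its difference of -0.07 ± 0.28 (SE) was smaller than its error (adjusted p = 0.964). Des, the intermediate filament of muscle, had 2437, 4929 and 2251 against 2251, 2408 and 2578 CPM (adjusted p = 0.766). Actg2, the enteric actin, had 2172, 3926 and 2747 against 1479, 2128 and 1445 CPM, and Cnn1, calponin, had 2408, 4006 and 2373 against 1412, 1945 and 1180.0 CPM. Mylk, the myosin light chain kinase that starts contraction, had 2512, 3766 and 2284 against 1753, 2022 and 1786 CPM. For Actg2, Cnn1 and Mylk each airway sum was above the same mouse's comparator, with log2 differences of 0.80, 0.95 and 0.62 that were not called. The exception was Pdlim3, a Z-disc linker of actinin, with 972.99, 1703 and 1240.2 CPM against 250.5, 342.2 and 286.1 CPM. Its 3 airway values lay far above the others, 2.14 ± 0.21 (SE) on the log2 scale (adjusted p = 0.0141), and it was also called with gated cells in the comparator.

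Receptors that contract or relax airways were mostly sparse. Of 35 bronchoconstrictor receptor genes, Chrm2 being part of the rule, 22 others were tested (median -0.91) and 1 was called, and of 23 bronchodilator receptor genes 14 were tested (median -1.32) and none was called. At an unadjusted p under 0.05, 2043 of all genes passed, and DESeq2's Wald test called 1542. Ednrb, the endothelin B receptor, was the called one, with 1427, 2276 and 1059.7 CPM in airway SMC against 460.7, 484.98 and 240.3 CPM, all airway values above all others. Its log2 fold change was 2.01 ± 0.30 (SE) (adjusted p = 0.0376), and every airway cell had a count. The call was lost with gated cells in the comparator, with at least 2 or at least 4 markers, and without airway cells meeting the gate. The endothelin A receptor Ednra had 390.5, 367.3 and 908.99 against 550.2, 522.1 and 849.6 CPM (adjusted p = 0.768). Ptger2, a prostaglandin E2 receptor coupled to cyclic AMP, had 74.6, 165.7 and 247.3 against 31.7, 31.9 and 41.3 CPM, higher in each mouse yet not called (adjusted p = 0.105). The tachykinin receptor gene Tacr2, chosen after its values were seen, had a count in 6 of 52 airway cells and in 0 of 713 other Myh11-high cells, which allows a share of up to 0.421%. Such limits cover counting error only, pool cells of the 3 mice and bound the share of cells with a count, not of cells expressing the gene. It had 17.7, 93.9 and 0 CPM in the 3 airway sums, and none of its 6 cells came from female mouse 1.

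Genes of cyclic nucleotide turnover moved both ways. Of 37 members 35 were tested, 3 were higher and 3 lower, around a median of -1.25. Over all genes 0.271% were higher and 0.277% lower, around a median of -0.41. Rgs2, a regulator that quenches Gq signals from contractile receptors, had 2009, 3028 and 1503 CPM against 508.4, 589.97 and 270.8 CPM, with counts in all 52 airway cells and 2.27 ± 0.18 (SE) on the log2 scale (adjusted p = 0.0141). Adcy7, an adenylyl cyclase, had 190.5, 435.8 and 404.4 CPM against 6.94, 44.2 and 14.6 CPM, 4.22 ± 0.47 (SE) (adjusted p = 0.0159), and was detected in 63.5% against 8.42% of thinned cells. Adcy3, another cyclase, was lower, at 40.6, 38.7 and 120.8 against 273.9, 254.9 and 831.3 CPM, -2.75 ± 0.29 (SE) (adjusted p = 0.0141). Gucy1a1, the alpha subunit of the nitric oxide-sensitive guanylyl cyclase, was lower too, at 207.98, 226.996 and 320.2 against 813.1, 1093 and 1343 CPM, -2.11 ± 0.25 (SE) (adjusted p = 0.0165). In each of these 4 genes the airway and comparator values did not overlap, which choosing called genes makes likely and which adds no support. With gated cells in the comparator Rgs2 and Adcy3 were called and Adcy7 and Gucy1a1 were not, and Adcy3 lost its call without the 9 airway cells above. The phosphodiesterase genes Pde4d and Pde3a were called higher and lower, at 237.3, 319.8 and 356.4 against 27.3, 37.9 and 90.5 and 12.9, 26 and 3.6 against 238.8, 329.99 and 312.02 CPM.

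Of 59 channel and calcium genes, 49 were tested, 1 was higher and 0 lower, around a median of 0.52. Kcnj8, the pore of an ATP-sensitive potassium channel, had 901.5, 600.9 and 1190.1 CPM against 83.1, 156.95 and 190.8 CPM, 2.65 ± 0.34 (SE) (adjusted p = 0.0249), with a count in 47 of 52 cells. Its partner Abcc9 had 303.3, 343.5 and 476.4 against 147.8, 254.6 and 130.995 CPM and was not called (adjusted p = 0.197). Kcnma1, the large-conductance calcium-activated potassium channel, had 93.8, 39.2 and 78.9 against 2.85, 9.27 and 1.7 CPM (adjusted p = 0.141). Of 32 adhesion and junction genes, 28 were tested (median -1.41) and 1 was called. This was Gja1, connexin 43, which couples neighbouring muscle cells, with 545.9, 1270.3 and 367.5 CPM against 48.8, 127.6 and 83.5 CPM. The values did not overlap, and the log2 fold change was 2.99 ± 0.34 (SE) (adjusted p = 0.0159). Both Kcnj8 and Gja1 had values of the same order in the gated cells, at 621.6, 546.7 and 593.5 and 382.4, 556.7 and 347.96 CPM. Kcnj8 is also in the pericyte list above.

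Notch pathway genes were lower in airway SMC where called. Of 20 members 14 were tested, 0 were higher and 2 lower, with a median of -1.95. Notch3, the receptor of mural cells (chr17:32120820-32166852, minus strand), had 6.29, 2.21 and 15.2 CPM against 406.9, 463.6 and 1514 CPM, the 3 airway values all below the others, and a log2 fold change of -6.78 ± 0.79 (SE) (adjusted p = 0.0159). It had a count in 30.8% against 78.5% of thinned cells. Hey2, a Notch target, had 0.286, 0 and 0.277 against 85, 116.2 and 61.1 CPM, -8.89 ± 1.33 (SE) (adjusted p = 0.0368), resting on 4 reads in the 52 airway cells. Heyl, a further target, had 54.6, 3.87 and 16.9 against 609.99, 879.6 and 1414 CPM and missed the call (adjusted p = 0.0554). Notch2 had 58.8, 7.73 and 255.4 against 53.4, 39.4 and 92.8 CPM (adjusted p = 0.978), and Rbpj, the common DNA-binding partner, had 57.3, 101.1 and 97.8 against 75.7, 171.7 and 97.6. Notch3, Hey2 and Heyl, like Epas1 and Pdgfrb below, belong to the 8 vascular markers used above to describe the classes. Notch3 was called with gated cells in the comparator while Hey2 was not.

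Among 76 regional and lineage transcription factors 57 were tested (median -0.68), 1 was higher and 3 were lower. Gata5, a zinc finger factor of visceral mesenchyme, had 237.1, 418.6 and 429.6 CPM against 24.4, 34.7 and 73.2 CPM, 3.15 ± 0.31 (SE) (adjusted p = 0.0141). Foxs1, a forkhead factor of perivascular cells, had 0.572, 0.552 and 1.66 against 50.8, 51.9 and 92.2 CPM, -6.33 ± 0.92 (SE) (adjusted p = 0.0354). Ebf1 had 12.1, 4.42 and 2.22 against 135.8, 125.6 and 113.9 CPM, -4.54 ± 0.67 (SE) (adjusted p = 0.0354), and Epas1, the hypoxia-inducible factor HIF-2 alpha, had 130.3, 26 and 51 against 748.3, 1194 and 954.7 CPM (adjusted p = 0.0368). In all 4 the classes did not overlap, which again adds no support for genes chosen as called. With gated cells in the comparator Gata5, Foxs1 and Ebf1 were not called. The lung mesenchyme factor Tbx4 had 231.9, 482.2 and 500.5 against 63.1, 122.2 and 242.4 CPM, higher in each mouse and not called (adjusted p = 0.0554), and its relative Tbx5 had 132.97, 121.5 and 148.5 against 149.1, 117.2 and 235.4. Myocd, the coactivator that drives smooth muscle genes, had 747.95, 459.5 and 1286 against 479.96, 541.4 and 739.04 CPM (adjusted p = 0.757).

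Of 48 Wnt, R-spondin and Lgr genes 37 were tested (median -0.81) and none was called against other Myh11-high cells. Lgr6, an R-spondin receptor used to mark airway muscle, had 286.05, 345.2 and 836.7 CPM against 137.5, 244.5 and 169.1 CPM, with a count in 40 airway cells and a difference of 1.27 ± 0.35 (SE) (adjusted p = 0.187). Each mouse had the higher value in airway SMC, most in female mouse 1. Rspo2, an R-spondin ligand, had no count in the 52 cells, which allows a share of cells with a count of up to 5.77%, counting error only. Among 43 TGF-beta and BMP genes 37 were tested (median -0.09), 2 were higher and 0 lower. Tgfbr3, a TGF-beta co-receptor, had 234.8, 503.7 and 464.2 against 77.3, 152.7 and 99.9 CPM, 1.86 ± 0.27 (SE) (adjusted p = 0.0351), not called with gated cells in the comparator.

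Among 53 growth factors and receptors 45 were tested (median -0.84), 1 was higher and 1 lower. Igf1, insulin-like growth factor 1, had 532.2, 472.8 and 408.5 CPM against 12.8, 32.9 and 28.7 CPM, 4.30 ± 0.49 (SE) (adjusted p = 0.0159), beside 492.4, 834.8 and 247.5 CPM in gated cells. Pdgfrb, the platelet-derived growth factor receptor of mural cells, had 108.9, 155.7 and 173.1 against 385.004, 557.1 and 1532 CPM, -2.24 ± 0.32 (SE) (adjusted p = 0.0334), lower in each mouse. Both were also called with gated cells in the comparator. Among 33 axon guidance genes 30 were tested (median -0.49) and 1 was called. This was the secreted Sema3c, with 383.4, 609.2 and 235.4 against 19.1, 43.6 and 45.8 CPM and 3.48 ± 0.45 (SE) (adjusted p = 0.0264), and it was not called with gated cells in the comparator. The reporter gene Cspg4 had 125.8, 93.3 and 73.7 against 279.2, 347.8 and 349.3 CPM, lower in each mouse and not called (adjusted p = 0.3).

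Of 63 matrix genes with counts 61 were tested, 2 were higher and 4 lower, around a median of -0.23. Ogn, the small proteoglycan osteoglycin, had 2291, 5329 and 1529 CPM against 553.04, 897.2 and 355.5 CPM, 2.25 ± 0.22 (SE) (adjusted p = 0.0141), with counts in all 52 cells. Thbs1, thrombospondin 1, had 2490.0, 2792 and 4424 against 742.4, 1385 and 1105 CPM, 1.61 ± 0.23 (SE) (adjusted p = 0.0351), not called with gated cells in the comparator. Eln, elastin, was lower, at 70.9, 202.1 and 403.5 against 545.5, 1039 and 2167 CPM, -2.60 ± 0.26 (SE) (adjusted p = 0.0141), and so was Tnxb, tenascin X, at 9.44, 11.6 and 17.2 against 104.4, 117.3 and 312.9 CPM, -3.66 ± 0.37 (SE) (adjusted p = 0.0141). Within each mouse all 4 kept the direction of the test. Fibronectin (Fn1) and spondin 1 (Spon1) were the other lower ones. The list of 35 chemokines, cytokines and complement genes had 31 tested (median -1.62) and none called.

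Immediate early and heat shock genes, which respond to tissue dissociation as well as to signals in life, stood at a median of 0.92, with 3 of 28 tested called higher and 0 lower. Nr4a2, an orphan nuclear receptor, had 780.6, 565.01 and 796.3 CPM against 83.4, 48.7 and 43.5 CPM, 3.68 ± 0.37 (SE) (adjusted p = 0.0141). Junb, an AP-1 subunit, had 3099, 1958 and 4501 against 1123, 790.8 and 1372 CPM, 1.51 ± 0.21 (SE) (adjusted p = 0.0287), and Ier3 was the third gene called. Their part in the other differences was not tested.

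Outside the lists, the higher genes with the smallest p included Hspb8, a small heat shock protein, with 610.7, 624.1 and 1051 CPM against 117.6, 142.8 and 130.3 CPM, 2.53 ± 0.29 (SE) (adjusted p = 0.0159), and Ptgs1, cyclooxygenase 1, with 146.03, 334.7 and 59.5 against 4.98, 6.71 and 5.95 CPM, 4.60 ± 0.53 (SE) (adjusted p = 0.0159). Enpp2, autotaxin, had 1502, 1895 and 1136 against 305.99, 287.03 and 300.7 CPM and Tgfbi, a secreted TGF-beta-induced protein, had 1066, 608.1 and 1815 against 35.7, 37.9 and 224.8 CPM (adjusted p = 0.0249 and 0.0278). Armh4, a membrane protein gene, had 116.5, 261.2 and 191.4 against 8.17, 16.5 and 28.5 CPM. Gm37509 (chr1:15853331-15856499, plus strand) was also called but overlaps the end of the rule gene Sbspon, and without stated strand its reads cannot be told from those of Sbspon. With gated cells in the comparator Ptgs1, Armh4, Sdc1 and Prss23 were not called. Among lower genes, Aldh1a2, a retinoic acid-making enzyme, had 1.14, 2.76 and 2.22 against 154.3, 185.99 and 203.2 CPM, -6.58 ± 0.78 (SE) (adjusted p = 0.0166). Sdc1, syndecan 1, had 0.381, 1.1 and 4.15 against 111.6, 87 and 305.3 CPM and Slc35f6, a solute carrier, 1.53, 1.1 and 2.22 against 79.1, 93.2 and 210.5. Crip1, a LIM protein, had 164.3, 113.2 and 113.3 against 845.2, 1017 and 536.7 CPM and Art4, an ADP-ribosyltransferase family member, 29.1, 21.5 and 34.9 against 169.8, 201.2 and 256.9. Prss23, a serine protease, had 55.8, 3.31 and 9.69 against 1269, 1663 and 1029.8 CPM, and its antisense gene Prss23os overlaps it, so the pair is uncertain. Another annotated gene also overlaps Notch3, Igf1, Gata5, Eln, Ebf1, Junb, Ogn, Hhip, Ptch1 and Adcy3, among others.

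**Figure D3:**
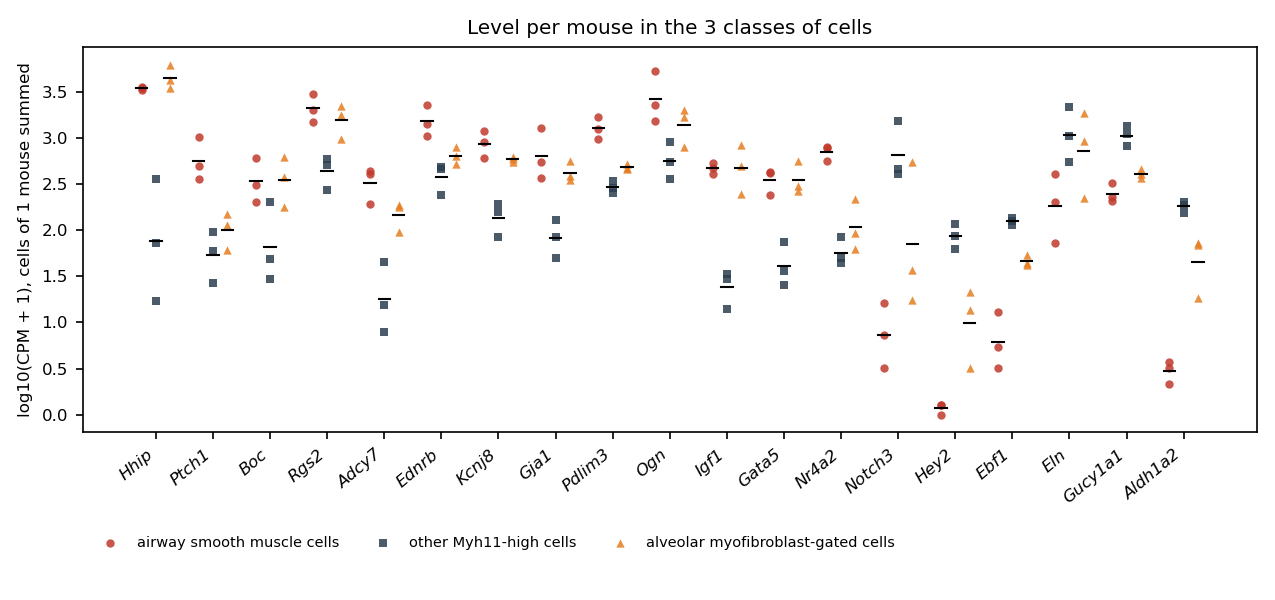
Level per mouse, as log10(CPM + 1) of counts summed over the cells of a class and scaled by TMM, for 19 genes in airway SMC, other Myh11-high cells and alveolar myofibroblast-gated cells; 3 points a class are the 3 mice and bars are the mean of the log values. Hey2, Ebf1 and Aldh1a2 are lowest in airway SMC, without overlap, and Igf1, Gata5 and Boc lie in the same range in airway SMC and gated cells.

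**Figure D4:**
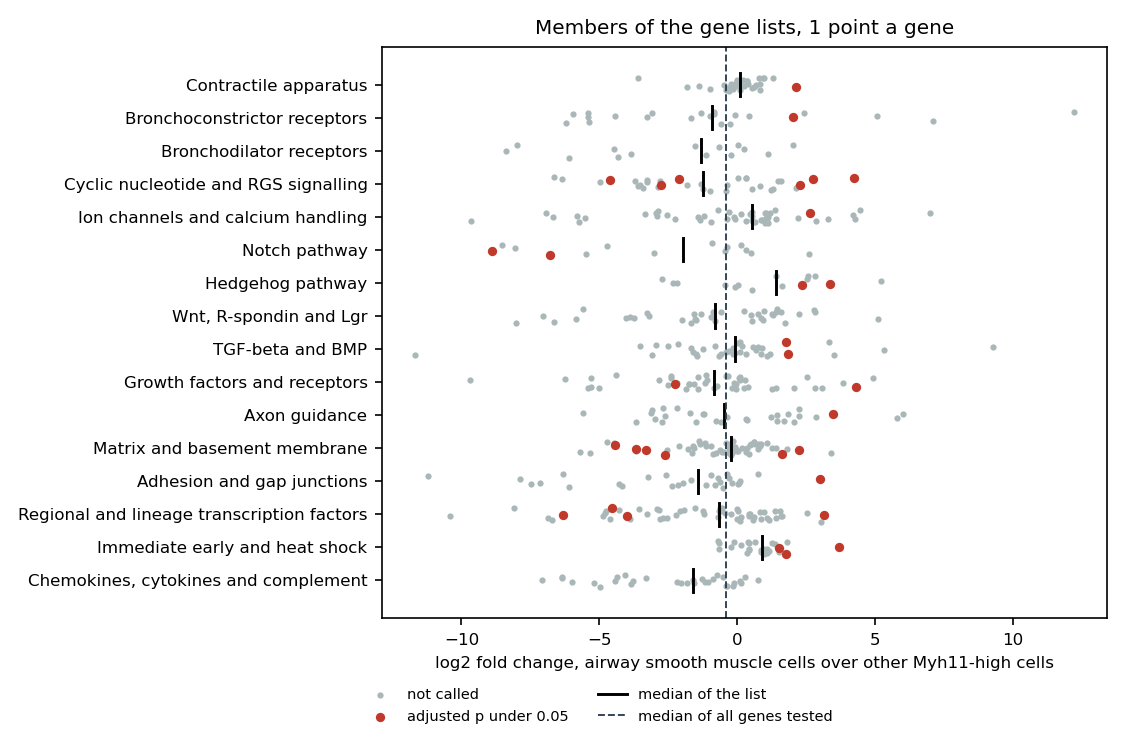
Log2 fold change of airway SMC over other Myh11-high cells for the tested members of 16 gene lists, without the genes of the rule and of the gate; each point is a gene, red where the adjusted p is under 0.05, black bars are list medians and the dashed line is the median of all genes at -0.41. Contractile genes cluster near 0, and most lists hold genes far to both sides that were not called.

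Against the alveolar myofibroblast-gated cells, which share the airway sums of the comparison above, 1 gene was called, lower in airway SMC (0.0066% of 15146 tested). This was Thbs2, thrombospondin 2, with 26, 54.7 and 113.0003 CPM in airway SMC and 461.4, 714.02 and 952.1 CPM in gated cells, -3.66 ± 0.32 (SE) on the log2 scale (adjusted p = 0.0386). Leaving out each mouse ended that call (adjusted p from 0.162 to 0.357), as did a fit without the block (0.0783), DESeq2's size factors (0.0576), other numbers of markers, the 2 classes alone (0.105) and leaving out the 9 airway cells with markers of another type (0.0812). In these fits the log2 fold change was -2.89 to -5.11. The call was kept with markers at 50 CPM, in thinned cells, without a filter, with DESeq2's Wald test, with comparator cells holding airway markers left out (adjusted p = 0.00875) and without airway cells meeting the gate, where the log2 fold change was -7.49 (adjusted p = 0.0041). A total of 1820 genes had an unadjusted p under 0.05, DESeq2's Wald test called 1424, and 30 were called when comparator cells with 1 or 2 airway markers were left out. The 6 gate genes chose these cells and were not read as results. The genes named below were those with the smallest p, and none but Thbs2 was called.

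With higher values in airway SMC, Tcap, the titin cap of the sarcomere, had 884.6, 639.01 and 766.4 CPM against 330.3, 202.6 and 245.6 CPM (log2 1.57 ± 0.20 (SE), adjusted p = 0.0642), and Myom1, the M-band protein myomesin, had 142.02, 173.4 and 157.3 against 40.7, 29.9 and 15.7 CPM (log2 2.54 ± 0.39 (SE), adjusted p = 0.0867). Rasl12, a Ras-like protein, had 445.1, 495.4 and 634.2 against 127.4, 130.5 and 267.96 CPM, and Ckb, the brain-type creatine kinase of smooth muscle, had 1208, 2371 and 1762 against 577.2, 625.98 and 771.4. Galnt2, a glycosyltransferase, had 419.1, 580.5 and 661.1 against 130.2, 80.5 and 223.7 CPM, and its values are uncertain since Gm20388 overlaps it with nearly the same reads. Nr4a2 had 780.6, 565.01 and 796.3 against 219.7, 62 and 92.5 CPM and Pdlim3 972.99, 1703 and 1240.2 against 470.7, 521.5 and 457.2. For each of these the 3 airway values lay above the 3 gated values, which choosing genes by smallest p makes likely and which adds no support. Myh11, part of the rule, had 2858, 4557 and 3274 CPM against 1229, 389.5 and 1600.1 CPM. The contractile list had a median of 1.29 beside -0.28 for all genes, with 0 of 32 called. Of the gated cells 85 (57.05%) had Myh11 below the limit of 500 CPM that the rule set for airway SMC, so this list is not independent of the choice.

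With higher values in the gated cells, the matrix genes Eln (70.9, 202.1 and 403.5 against 219.8, 915.8 and 1847 CPM), Tnxb (9.44, 11.6 and 17.2 against 120.4, 115.9 and 307.4) and Spon1 (11.9, 5.52 and 9.42 against 86.5, 182.04 and 217.9) had adjusted p-values of 0.0642, 0.0563 and 0.0642. Adamts10, a fibrillin-associated protease, had 60.8, 58.5 and 99.4 against 294.8, 353.5 and 637.4 CPM and Ctsc, cathepsin C, 45.2, 66.8 and 44.6 against 446.96, 515.5 and 254.2. Slc35f6 had 1.53, 1.1 and 2.22 against 57.6, 172.3 and 113.8 CPM, and Dtx2, a ubiquitin ligase of the Deltex family, 0.0953, 0 and 0.277 against 54.6, 40.2 and 78.4. Hhip, Igf1, Gata5 and Boc, several of which were high against other Myh11-high cells, had log2 differences of -0.39, -0.03, 0.00 and -0.04 against gated cells, with adjusted p of 0.888 or more. This does not show that they are equal, as the standard errors ran from 0.30 to 0.72.

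Against all 1324 other cells, 45 genes were higher in airway SMC (0.264% of 17022 tested) and 58 lower (0.341%), or 36 and 58 without genes of the rule and gate. These sums again share the airway cells. The median of all genes was -0.74. Of the contractile list 7 of 32 were higher (Actg2, Mrvi1, Pdlim3, Cnn1, Smtn, Ckb and Mylk) and 0 lower. Since 41.3% of the other cells had Myh11 below 500 CPM, the contractile list is not independent of the choice of the cells here. The part of that choice in these calls was not tested. Against other Myh11-high cells 1 of 32 was called. Cnn1 had 2408, 4006 and 2373 CPM against 933.2, 956.6 and 542.03 CPM and a log2 fold change of 1.90 ± 0.20 (SE) (adjusted p = 0.00833). Hhip was higher by 2.40 ± 0.28 (SE) (adjusted p = 0.0131), with 361.2, 1003 and 832.8 CPM in the other cells. Rgs2, Ednrb, Pdlim3 and Nr4a2 were higher too, each with an adjusted p of 0.006. Notch3 was lower by a log2 fold change of -5.82 ± 0.47 (SE) (adjusted p = 0.006), and Heyl and Epas1 were called lower. Of the matrix genes 62 were tested, 1 (Ogn) was higher and 6 (Fn1, Fbn1, Eln, Fbln2, Spon1 and Lamb1) lower. This fit had 2 residual degrees of freedom, and without the replicate block it called 12 higher and 38 lower.

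Airway SMC were also compared among themselves by whether they met the myofibroblast gate. The 30 cells that met it and the 22 that did not had Myh11 sums of 2419, 4410.0 and 3484 and 3889.9, 4182 and 2708 CPM, without TMM scaling. Hhip was 4054, 5427 and 3556 CPM in the cells meeting the gate and 2005, 1458 and 3279 in the others, higher in each mouse. Igf1 (670.9, 521.9 and 503.9 against 273.4, 380.2 and 248.4 CPM) and Thbs1 (2753, 4264 and 4354 against 2068, 1259 and 4117) were higher in each mouse as well. Thbs2 had 38, 108.5 and 188.7 CPM in cells meeting the gate and 2.65, 3.81 and 4.88 in the others. The reporter gene Cspg4, which is in the pericyte list, had 93.1, 44.5 and 16.5 against 198.6, 123.9 and 140.99 CPM, lower in each mouse. Rgs2 (2090.4, 2424 and 1288 against 1936, 3201 and 1646) and Pdlim3 (1003, 1181 and 1089 against 956.998, 1952 and 1324) had no common direction. Of the rule genes, Lgi3 had 185.9, 149.6 and 199.6 against 621.99, 175.3 and 837.4 CPM, lower in each mouse. These are values of 5 to 18 cells a mouse with no test. With the 30 cells left out, 8 genes were called against other Myh11-high cells, among them Rgs2, Ogn and Pdlim3.

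Several genes outside the rule had counts in part of the cells. Ptch1 had a count in 40 of 52 cells, Lgr6 in 40, Foxf1 in 38, Boc in 37 and Gli1 in 14. Lgr6 ran from 0 to 3228 CPM, with a median of 360.7, and Ptch1 ran from 0 to 2209 CPM, with a median of 163.3. The medians of Lgr6 were 367.4, 35 and 420.2 CPM in the 3 mice. Notch3 never passed 136.7 CPM in an airway cell and Hey2 never 3.94. Per exonic kilobase, the scale on which genes can be set against each other, the highest protein-coding genes outside the mitochondrion were Myl9 at 2946, Acta2 at 2767, Actc1 at 2054 and Actg2 at 1893 CPM per kilobase. Of the rule genes Myh11 had 468.9, Sbspon 228.5, Chrm2 141.1 and Sh3rf2 31.2, while Hhip had 381.1 and Chrm3 2.61 CPM per kilobase.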

How the data were processed

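The authors deposited read counts, whole numbers for each gene in each of 1376 Smart-Seq2 cells (full-length cDNA, no molecular identifiers), per the labels' protocols and the values themselves. Builds GRCm38 and mm10 and the tools featureCounts, Subread, Bowtie, Bowtie2 and bcl2fastq appear, with neither version nor role, per the submitters' processing notes. How strand and multi-mapping reads were handled is not stated. Of 46517 Ensembl genes, 46005 took symbols and coordinates from GENCODE M21. The members, marker lists and gene lists were chosen with earlier results of these data known.

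Counts were summed per class and mouse (at least 5 cells a sum), giving 9 sums for the comparisons with Myh11-high and gated cells and 6 for all other cells. They were filtered with filterByExpr, scaled by TMM and tested two-sided with edgeR 4.0.16 (R 4.3.3) as a quasi-likelihood test, mouse as a block. Standard errors are the log2 fold change over the square root of F. DESeq2 1.42.0 was an alternative. The procedure was tested on simulated counts that held no differences between mice, so its handling of such differences was not tested. The mouse pairs classes because the same animals gave every class, and deviations of airway SMC and other Myh11-high sums correlated at 0.0976, 0.147 and 0.218. P-values measure how class differences vary between the 3 mice. The block takes up level differences between mice, and with them sex and plate. The 2 plates of male mouse 1 were summed, so spread between plates was not measured. Cells were also thinned to 50000 counts (seed 1).

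Named genes were the 8 rule genes and 14 further muscle, receptor and Hedgehog genes, then by smallest p with a minimum level: up to 2 called each way per list (20 CPM), 6 each way outside the lists (50 CPM), and 8 each way against gated cells (50 CPM). Some results are not reported here. Other list members are given as examples chosen after their values were seen. Python 3.11.15 with numpy 2.4.6, pandas 2.3.3, scipy 1.17.1 and matplotlib 3.10.9 did the rest.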

Additional observations from a re-analysis of the deposited data

How the results depend on the processing

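Called genes are given here as a share of genes tested, with edgeR's quasi-likelihood test unless another is named. Against other Myh11-high cells the share was 0.548%. It was 0.837% without airway cells holding 3 or more markers of another type, 1.24% in thinned cells, 0.433% with no filter on low counts and 10.2% with DESeq2's Wald test. It was 0.258% with at least 4 markers, where male mouse 2 kept 4 airway cells and was left out, and 0.316% with at least 2, where 44 genes were higher and 4 lower. It was 0.0533% without airway cells that meet the myofibroblast gate and 0.232% with gated cells in the comparator, both added after seeing the data, as was a comparator with 3 or more vascular markers. Leaving out each mouse in turn gave 0% throughout.

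Against gated cells the share was 0.0066%. It was 0.0465% without airway cells holding markers of another type, 0.214% without comparator cells holding airway markers, 0.127% in thinned cells, 0.127% without a filter, 9.4% with DESeq2's Wald test and 0.0333% without airway cells meeting the gate. It was 0% with at least 4 markers, at least 2 markers, DESeq2's size factors, the 2 classes alone, and on leaving out each mouse. In these fits 2263, 1741, 1846, 888 and 1346 to 1551 genes had an unadjusted p under 0.05.

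Against all other cells the share was 0.605%. It was 1.32% with at least 4 markers, 0.294% with at least 2, 1.11% in thinned cells and 13.9% with DESeq2's Wald test. Leaving out each mouse gave 1.37% to 2.19% (1.48% without male mouse 1), with 1 residual degree of freedom. Without the replicate block, which ignores the pairing by mouse, the 3 comparisons called 0.601%, 0.066% and 0.294%. Among the 41 called genes that the naming rule took against other Myh11-high cells, it ended the calls of Adcy3, Notch3, Boc, Tgfbr3, Pdgfrb, Ogn, Thbs1, Eln, Junb, Tgfbi and Adamts10. The share of cells meeting the rule was 7.56% with at least 2 markers and 1.89% with at least 4. Of the same 41, calls were lost by 26 with at least 4 markers, 21 with at least 2, 38 without airway cells meeting the gate, 19 with gated cells in the comparator, 6 with only the 2 classes in the fit and 5 without comparator cells holding airway markers. Adcy3 was lost without cells holding markers of another type and Armh4 with the vascular comparator. These 41 and Thbs2 kept their direction under the alternatives run, which reuse cells of the same mice that chose them, so this is weak support. Other called genes in the text were not followed. The cause of these changes was not tested, and 10 to 30 airway cells per mouse limit the precision.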

Other observations

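Genes best known from striated muscle were part of the airway SMC profile. Actc1, the alpha-cardiac actin, had a count in all 52 airway cells and 2527, 6001 and 1444 CPM in the 3 mice, against 2547, 4455 and 1618 CPM in other Myh11-high cells, so the order of the classes differed between mice (adjusted p = 0.963 with edgeR's quasi-likelihood test). Tnnt2, cardiac troponin T, had a count in 26 airway cells and 388.3, 942.2 and 19.1 CPM, highest in male mouse 2 and lowest in female mouse 1, against 60.7, 35.7 and 16.3 CPM, and was not called (adjusted p = 0.263). Myh6, the atrial myosin heavy chain, had no count in the 52 cells, which allows a share of cells with a count of up to 5.77%, counting error only, and Tnni3 had one in 2 cells. Tcap had 884.6, 639.01 and 766.4 CPM against 443.2, 315.7 and 359.6 CPM in other Myh11-high cells, higher in each mouse and not called (adjusted p = 0.0781).

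Semaphorin and neuropilin genes beyond Sema3c were patchy. The axon guidance list holds Sema3a, a repellent ligand, with a count in 21 of 52 airway cells and 21.6, 272.3 and 26.9 CPM against 0.393, 0.332 and 6.94 CPM, most of it in male mouse 2 (adjusted p = 0.199). Nrp2, a neuropilin co-receptor, had 74.3, 136.4 and 210.8 against 10.7, 13.2 and 40.4 CPM, higher in each mouse (adjusted p = 0.068), and Nrp1 had 157.9, 7.73 and 43.8 against 393.6, 274.3 and 421.8 CPM, lower in each mouse (adjusted p = 0.115). None of the 3 was called, and all were chosen after their values were seen. Dkk3, a secreted Dickkopf family member, had 1055, 834.5 and 786.02 against 230.5, 418.7 and 479.7 CPM and Nkd1, a Wnt target that dampens the pathway, 498.8, 555.6 and 765.5 against 134.4, 241.5 and 329.7, both higher in each mouse and not called against other Myh11-high cells (adjusted p = 0.117 and 0.172).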
